A study of Mus musculus with 18 samples.

Results

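The genes described here are 10 transcription factors that direct or mark the amacrine and horizontal fates of the mouse retina, namely Ptf1a, Tfap2a, Tfap2b, Nhlh1, Nhlh2, Neurod6, Barhl2, Foxn4, Onecut1 and Prox1. They were taken by gene name from both deposited tables, where all 10 were found among 34385 and 34396 genes and all 10 passed the filter on low values. Each had the same gene identifier in both tables. Messenger RNA was measured by SMART-Seq v4 in EGFP-positive cells sorted from retinas of ICR mice, an outbred stock, that had been electroporated at postnatal day 0.5 and kept as explants for 3 days. The study compared Nmnat1 knockdown and Nmnat2 knockdown plasmids with a scramble plasmid in one table, and Nmnat1 overexpression and Nmnat2 overexpression plasmids with an empty vector in the other. All 18 libraries, 3 in each of the 6 groups, came from cells that also took up an EGFP plasmid, so every control cell had been electroporated and cultured in the same way. Nmnat1 and Nmnat2 encode enzymes that make NAD in the nucleus and on Golgi membranes. Whether the libraries of a group stem from different animals is not in the labels, and the p-values therefore reflect only how far these libraries spread, which may be technical.

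Amacrine cells are the inhibitory interneurons of the inner retina, and horizontal cells are inhibitory interneurons that contact photoreceptors. The forkhead factor Foxn4 acts in progenitors and promotes expression of Ptf1a, a basic helix-loop-helix (bHLH) factor that works in a complex with Rbpj and commits newborn cells to both fates. The AP-2 factors Tfap2a and Tfap2b act after Ptf1a, Onecut1 and Prox1 act in horizontal cell formation, and Barhl2, Nhlh1, Nhlh2 and Neurod6 are homeobox and bHLH factors of amacrine cells or their precursors. Horizontal cells are born before birth in the mouse, whereas amacrine birth reaches into the first postnatal days.

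Regions before the annotated start are shown for 4 of the factors, as RefSeq gives them on GRCm38.p6. Each is read 5′ to 3′ on the strand of its gene. Capitals mark the E-box CANNTG, the site class bound by bHLH dimers, and TGGGAA, the core bound by Rbpj, found on either strand.
Ptf1a, chr2:19445413-19445662, plus strand: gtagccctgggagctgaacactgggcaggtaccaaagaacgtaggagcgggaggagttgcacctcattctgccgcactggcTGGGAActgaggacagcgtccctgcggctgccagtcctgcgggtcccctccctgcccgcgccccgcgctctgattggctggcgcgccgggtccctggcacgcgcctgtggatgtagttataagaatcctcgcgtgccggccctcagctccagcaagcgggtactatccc
Tfap2b, chr1:19211804-19212053, plus strand: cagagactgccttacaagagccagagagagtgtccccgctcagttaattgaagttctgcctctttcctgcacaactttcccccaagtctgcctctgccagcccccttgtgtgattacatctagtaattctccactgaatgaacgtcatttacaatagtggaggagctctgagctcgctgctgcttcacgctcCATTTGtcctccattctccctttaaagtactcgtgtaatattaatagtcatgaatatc
Nhlh2, chr3:102009895-102010075, plus strand: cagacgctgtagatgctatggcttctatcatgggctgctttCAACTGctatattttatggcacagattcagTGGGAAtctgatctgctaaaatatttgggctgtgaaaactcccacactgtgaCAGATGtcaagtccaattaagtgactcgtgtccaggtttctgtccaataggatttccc
Neurod6, chr6:55681264-55681513, minus strand: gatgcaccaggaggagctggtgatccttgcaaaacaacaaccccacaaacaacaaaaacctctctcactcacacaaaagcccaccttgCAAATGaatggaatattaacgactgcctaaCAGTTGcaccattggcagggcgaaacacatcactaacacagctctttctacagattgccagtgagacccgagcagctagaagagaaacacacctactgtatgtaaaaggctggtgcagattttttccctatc
The Nhlh2 region stops at 181 bases, before the first exon annotated by GENCODE, and the others hold 250 bases. The Tfap2b region lies inside the longer gene span that GENCODE release M21 gives (chr1:19208914-19238576). The Ptf1a region held 0 E-boxes and 1 TGGGAA, and the Tfap2b region held 1 E-box and 0 TGGGAA. Nhlh2 had 2 E-boxes and 1 TGGGAA, and Neurod6 had 2 E-boxes and 0 TGGGAA. Over all 32851 RefSeq promoter windows of 250 bases, 66.2% held an E-box and 21.6% held TGGGAA, so that the presence of an E-box sets no promoter apart.

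By the same GENCODE release on GRCm38, Ptf1a lies at chr2:19445663-19447501 on the plus strand, Nhlh2 at chr3:102010076-102015492 on the plus strand and Neurod6 at chr6:55677822-55681263 on the minus strand. Ptf1a and Prox1 overlap antisense genes (Ptf1aos and Prox1os), and Tfap2a and Onecut1 overlap predicted genes. These overlaps are of whole gene spans, and shared exon bases were not counted. The library chemistry does not mark the strand, so reads from exon bases shared by genes on opposite strands could not be told apart. Levels are given in ppm, on a scale where the signal of each library, which is scaled by gene length, sums to 1000000, and log2 fold changes are on the log2(ppm + 1) scale with their SE. That scale understates the change of low genes. The order of levels among genes is therefore per length.

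For a gene of 1 kb, 1 ppm stood for about 11.3 to 16.7 reads among overexpression libraries and 12.6 to 20.8 among knockdown libraries. Library N2_2 of the Nmnat2 knockdown group lay at 129 on the first principal component, where the other 8 libraries lay between -31.2 and -5.83. Mitochondrial genes made up 6.51% of N2_2 and at most 4.67% of the others. In the overexpression table, the Nmnat1, Nmnat2 and empty-vector libraries numbered 1 (N1_1, N2_1 and v1) lay at -33.9, -91.4 and -24.5, where the other 6 lay between 4.14 and 50.0. Results are therefore given with and without these libraries. Nmnat1 averaged 7.80 ± 0.642 ppm in Nmnat1 knockdown cells and 19.0 ± 1.99 ppm in scramble cells (SD, n = 3 each), without overlap. Nmnat2 averaged 0.927 ± 0.390 ppm in Nmnat2 knockdown cells and 2.96 ± 2.91 ppm in scramble cells, with overlap, so its loss was not detectable at this level. In the overexpression table, where transcripts of the plasmid count too, Nmnat1 averaged 19325 ± 7372 ppm with its plasmid and 20.8 ± 1.97 ppm with the empty vector, and Nmnat2 averaged 21581 ± 1072 and 1.89 ± 0.788 ppm.

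All 6 groups held RNA of several retinal cell types. Photoreceptor markers summed to between 3909 and 8383 ppm over all 18 libraries, and Müller glia markers to between 2324 and 6796 ppm. The amacrine genes other than the 10 factors summed to between 497 and 1454 ppm. Of the defining horizontal cell genes, Lhx1 stood at 0 to 0.667 ppm and Onecut3 at 0 to 1.24 ppm across the libraries of both tables. The 11 listed horizontal cell genes summed to 113 to 268 ppm in the knockdown table. In the overexpression table, the 10 found there summed to 22.7 to 69.6 ppm. Amacrine genes were thus well above the floor. The horizontal list as a sum was above it too, while Lhx1 and Onecut3 were at or near 0. Group means were also low for Calb1 (1.28 to 3.01 ppm) and Adora2a (0.227 to 0.845 ppm). Which genes of the list made up the sum was not tested, so the sum does not show that its genes in general were above the floor. Per length, the factors ran in scramble cells from Nhlh2 (75.7 ± 2.47 ppm) and Prox1 (33.1 ± 10.1 ppm) over Tfap2b, Ptf1a, Barhl2, Tfap2a, Foxn4 and Neurod6 to Nhlh1 (2.78 ± 1.14 ppm) and Onecut1 (1.35 ± 0.333 ppm; SD, n = 3). Neighbours in this order overlapped between Prox1 and Tfap2b and from Tfap2a to Nhlh1. In these sorted bulk samples, fewer cells of a type and less RNA per cell cannot be told apart.

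In Nmnat1 knockdown cells, 9 of the 10 factors had lower levels than in scramble cells, with no overlap between the groups for all 9, and Onecut1 overlapped. Of all 22233 tested genes, 24.8% did not overlap in either direction, and 2671 of them were lower. By limma with Benjamini-Hochberg (BH) adjustment over 22233 genes, 0 of 10 passed 0.05, where 0.144% of all genes did, and 4 were lower at an unadjusted p under 0.05, where 5.64% of all genes were. The median log2 fold change of the factors was -0.92, against -0.00 for all tested genes. In Nmnat2 knockdown cells the factors went several ways. Their median was 0.50, against -0.23 for all genes, 0 of 10 passed where 0.436% of all genes did, and 4 were higher and 1 lower at an unadjusted p under 0.05, where 3.41% and 13.4% of all genes were. Library N2_2 had the lowest Ptf1a, Foxn4, Prox1, Onecut1, Tfap2a, Tfap2b, Barhl2, Nhlh1 and Nhlh2 of its group. Without N2_2, limma called 5 factors lower in Nmnat1 knockdown cells, where 3.49% of all genes were called lower. In Nmnat2 knockdown cells it then called 6 higher and 1 lower, where 7.73% and 7.25% of all genes were.

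**Figure D1:**
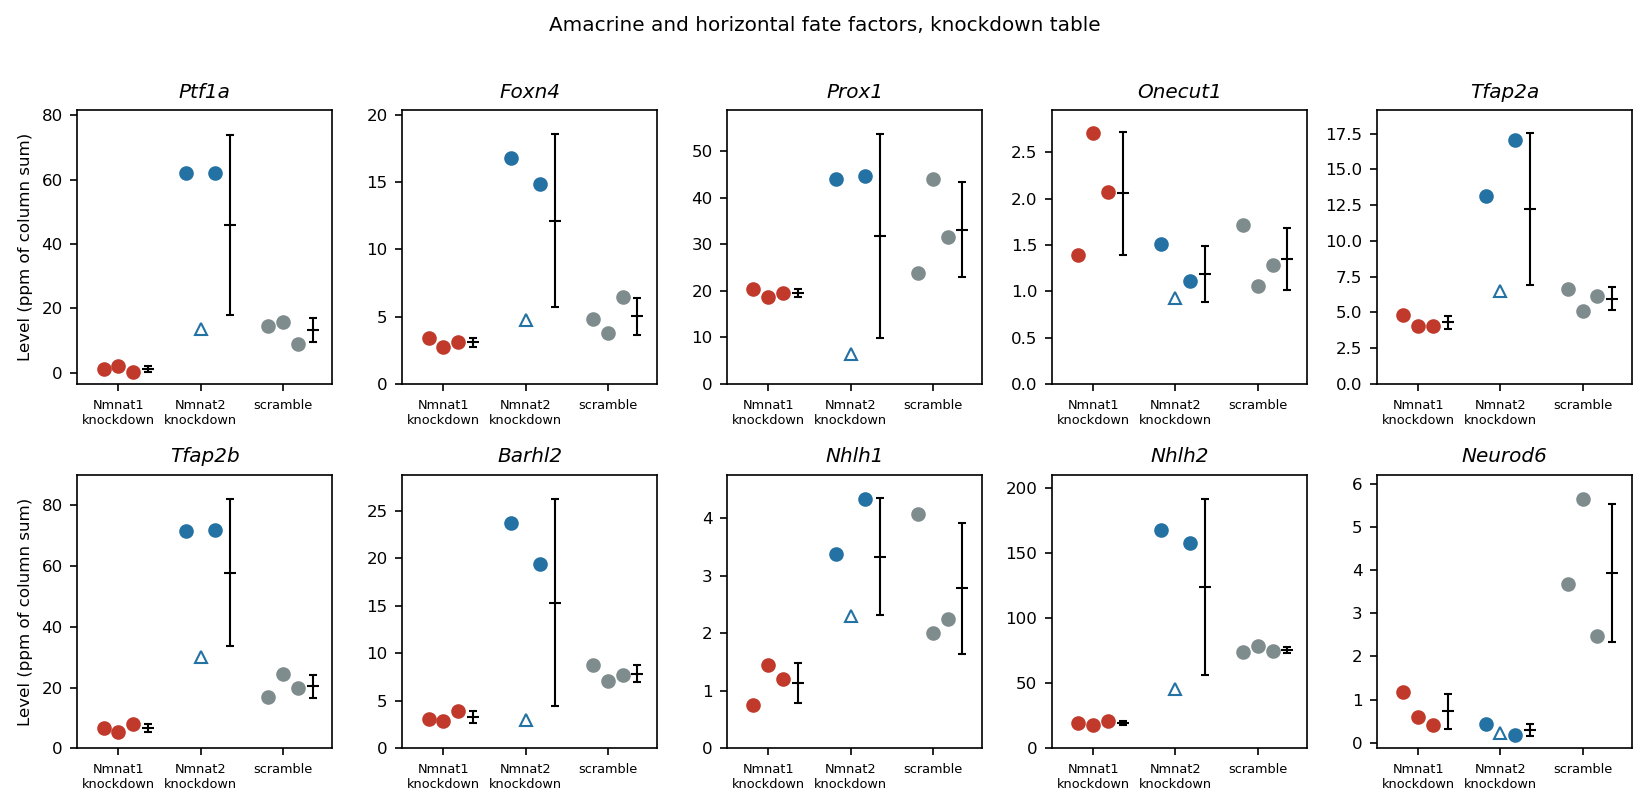
Level of each of the 10 factors in ppm of the column sum (vertical axis) in the 3 libraries of the Nmnat1 knockdown, Nmnat2 knockdown and scramble groups, with the mean and SD as bars to the right. The open triangle is library N2_2, which sits among the scramble libraries for Ptf1a at 13.5 ppm, while N2_1 and N2_3 sit at 62.0 and 62.1 ppm.

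Ptf1a and its upstream factor Foxn4 come first. Ptf1a stood at 1.10, 2.20 and 0.261 ppm in Nmnat1 knockdown cells, at 62.0, 13.5 and 62.1 ppm in Nmnat2 knockdown cells (N2_1, N2_2 and N2_3) and at 14.6, 15.9 and 8.90 ppm in scramble cells. Every Nmnat1 knockdown library was under every other library of the table, and 2 of the 3 Nmnat2 knockdown libraries were over all scramble libraries. As Ptf1a has 1 annotated transcript, its levels could be turned into reads, and the Nmnat1 knockdown libraries held about 17, 45 and 5 of them, against 383, 249 and 173 in scramble. The lowest level, 0.261 ppm, has an exact Poisson 95% interval of 0.0847 to 0.608 ppm, which covers counting error only. The mean was 11.1-fold lower in Nmnat1 knockdown than in scramble cells, at a log2 fold change of -2.76 ± 0.58 (limma, adjusted p = 0.125). Leaving out N2_2, which belongs to the Nmnat2 group and enters this comparison through the common variance, gave the same fold change an SE of 0.36 and an adjusted p of 0.00192. In Nmnat2 knockdown cells the log2 fold change was 1.49 ± 0.58 (adjusted p = 0.231), or 2.20 ± 0.40 without N2_2 (adjusted p = 0.00551).

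Foxn4 stood at 3.42, 2.71 and 3.15 ppm in Nmnat1 knockdown cells, at 16.8, 4.79 and 14.9 ppm in Nmnat2 knockdown cells and at 4.80, 3.77 and 6.49 ppm in scramble cells. The Nmnat1 knockdown libraries lay just under the scramble libraries, and N2_2 lay among the scramble libraries. In Nmnat1 knockdown cells the difference was small against its error, at -0.54 ± 0.44 (adjusted p = 0.710), and did not pass without N2_2 either (adjusted p = 0.294). In Nmnat2 knockdown cells it was 0.99 ± 0.44 (adjusted p = 0.288), and 1.50 ± 0.31 without N2_2 (adjusted p = 0.0110).

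Tfap2b, an AP-2 factor of postmitotic amacrine and horizontal cells, stood at 6.61, 5.38 and 8.06 ppm in Nmnat1 knockdown cells, at 71.6, 29.95 and 71.8 ppm in Nmnat2 knockdown cells and at 16.9, 24.5 and 19.8 ppm in scramble cells. The 3 groups did not overlap, and N2_2 was also over the scramble libraries. Tfap2b and Neurod6 were the 2 factors of the 10 whose Nmnat2 knockdown and scramble libraries did not overlap, 1 in each direction, where 4.73% of all genes were higher and 17.2% lower without overlap. Its log2 fold change was -1.48 ± 0.35 in Nmnat1 knockdown (adjusted p = 0.162) and 1.37 ± 0.35 in Nmnat2 knockdown cells (adjusted p = 0.109). Without N2_2 these were -1.48 ± 0.20 (adjusted p = 0.00225) and 1.78 ± 0.22 (adjusted p = 0.000700). Tfap2a, its paralog, stood at 4.83, 4.06 and 4.02 ppm in Nmnat1 knockdown, at 13.1, 6.50 and 17.0 ppm in Nmnat2 knockdown and at 6.64, 5.08 and 6.16 ppm in scramble cells. Its log2 fold changes were -0.39 ± 0.36 (adjusted p = 0.738) and 0.84 ± 0.36 (adjusted p = 0.275), and in Nmnat2 knockdown cells 1.20 ± 0.28 without N2_2 (adjusted p = 0.0190).

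Barhl2, a homeobox factor of amacrine subtype and ganglion cell development, stood at 3.06, 2.84 and 3.98 ppm in Nmnat1 knockdown cells, at 23.7, 2.97 and 19.4 ppm in Nmnat2 knockdown cells and at 8.81, 7.09 and 7.67 ppm in scramble cells. All Nmnat1 knockdown libraries were under scramble, while N2_2 lay among the Nmnat1 knockdown libraries and N2_1 and N2_3 were over scramble. The log2 fold changes were -1.05 ± 0.59 (adjusted p = 0.576) and 0.51 ± 0.59 (adjusted p = 0.706). Without N2_2 they were -1.05 ± 0.24 (adjusted p = 0.0289) and 1.34 ± 0.27 (adjusted p = 0.00965).

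Of the bHLH genes, Nhlh2, a factor of newly formed neurons, was the most abundant of the 10 in scramble cells. It stood at 19.2, 17.8 and 20.9 ppm in Nmnat1 knockdown cells, at 168, 45.9 and 158 ppm in Nmnat2 knockdown cells and at 73.7, 78.5 and 75.0 ppm in scramble cells. Scramble and Nmnat1 knockdown libraries each lay close together and far apart from each other, and N2_2 lay between them. Its mean was 3.93-fold lower in Nmnat1 knockdown cells, at -1.92 ± 0.41 (limma, adjusted p = 0.128), with an adjusted p of 4.16e-05 and an SE of 0.10 without N2_2. In Nmnat2 knockdown cells it was at 0.49 ± 0.41 (adjusted p = 0.584), and at 1.10 ± 0.12 without N2_2 (adjusted p = 0.000306). Nhlh1, its paralog, was low, with 0.758 to 1.44 ppm in Nmnat1 knockdown, 2.29 to 4.33 ppm in Nmnat2 knockdown and 1.998 to 4.08 ppm in scramble cells. It passed in neither comparison (adjusted p = 0.497 and 0.825), nor without N2_2 (0.232 and 0.558).

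Neurod6, a bHLH factor that marks amacrine cells which use neither GABA nor glycine, was low in both knockdown groups. It stood at 1.18, 0.606 and 0.406 ppm in Nmnat1 knockdown cells, at 0.443, 0.236 and 0.181 ppm in Nmnat2 knockdown cells and at 3.67, 5.64 and 2.47 ppm in scramble cells. Every library of both knockdown groups was under every scramble library, N2_2 included. These levels stood for about 28, 19 and 12 reads in Nmnat1 knockdown, 13, 6 and 6 in Nmnat2 knockdown and 145, 135 and 73 in scramble cells. The log2 fold changes were -1.48 ± 0.38 (adjusted p = 0.189) and -1.89 ± 0.38 (adjusted p = 0.0633) by limma. Without N2_2 they were -1.48 ± 0.39 (adjusted p = 0.0482) and -1.87 ± 0.44 (adjusted p = 0.0198). The fold changes were thus no larger and the SEs no smaller than with all libraries. Over all genes, on which the BH adjustment depends, 1802 and 3331 were then called, against 32 and 97 with all libraries. Both comparisons share the scramble libraries, so they are not independent of each other.

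Neither horizontal cell factor passed against scramble. Prox1, which also marks some amacrine and bipolar cells, stood at 20.4, 18.7 and 19.6 ppm in Nmnat1 knockdown cells, at 44.0, 6.43 and 44.6 ppm in Nmnat2 knockdown cells and at 23.9, 43.9 and 31.6 ppm in scramble cells. N2_2 was the lowest library of the table, and the 2 others of its group were just above the highest scramble library. The log2 fold change was -0.69 ± 0.59 in Nmnat1 knockdown (adjusted p = 0.723) and -0.42 ± 0.59 in Nmnat2 knockdown cells (adjusted p = 0.769), and the sign of the second turned to 0.45 ± 0.22 without N2_2 (adjusted p = 0.208). Onecut1 lay between 1.39 and 2.71 ppm in Nmnat1 knockdown, 0.929 and 1.51 ppm in Nmnat2 knockdown and 1.06 and 1.71 ppm in scramble cells, with overlap in both comparisons (adjusted p = 0.746 and 0.916).

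The direct comparison of the 2 knockdown groups tested whether the factors differed between them. In Nmnat1 knockdown cells 3 of the 10 were lower, namely Ptf1a, Tfap2b and Nhlh2, where 0.715% of all genes were called lower. Ptf1a was 38.6-fold lower in mean level than in Nmnat2 knockdown cells (log2 -4.24 ± 0.58, limma adjusted p = 0.00621). Tfap2b was 8.65-fold lower (-2.85 ± 0.35, adjusted p = 0.00429) and Nhlh2 6.43-fold lower (-2.42 ± 0.41, adjusted p = 0.0168). Ptf1a and Tfap2b passed under all 16 alternatives run, and Nhlh2 under 9 of 16. Foxn4 (-1.53 ± 0.44, adjusted p = 0.120), Tfap2a (-1.23 ± 0.36, adjusted p = 0.125) and Nhlh1 (-1.01 ± 0.37, adjusted p = 0.218) did not overlap either, which made 6 of 10 lower without overlap, against 6.37% of all genes. Without N2_2, 7 factors were called lower, where 6.78% of all genes were, with Barhl2, Foxn4, Tfap2a and Prox1 added. Neurod6 and Onecut1 had positive differences (0.41 ± 0.38 and 0.47 ± 0.35) that did not pass (adjusted p = 0.627 and 0.536).

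In the overexpression table, both plasmids went with higher levels of most of the factors. Nhlh2 rose in Nmnat1 overexpression cells, and Nhlh2 and Prox1 rose in Nmnat2 overexpression cells. These were 1 of 10 where 0.0917% of all genes rose, and 2 of 10 where 0.203% rose. The median log2 fold change of the 10 was 1.11 in Nmnat1 and 0.85 in Nmnat2 overexpression cells, against -0.04 and 0.06 for all tested genes. Without overlap, 6 of 10 were higher and 1 lower in Nmnat1 overexpression cells, against 7.74% and 10.1% of all genes. In Nmnat2 overexpression cells 5 were higher and 1 lower, against 8.60% and 7.73%. Without the libraries numbered 1 (2 libraries left per group), 6 were called higher with each plasmid, namely Ptf1a, Tfap2a, Tfap2b, Barhl2, Nhlh2 and Prox1, where 4.43% of all genes were with Nmnat1 and 3.27% with Nmnat2. The 2 comparisons share the empty-vector libraries.

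**Figure D2:**
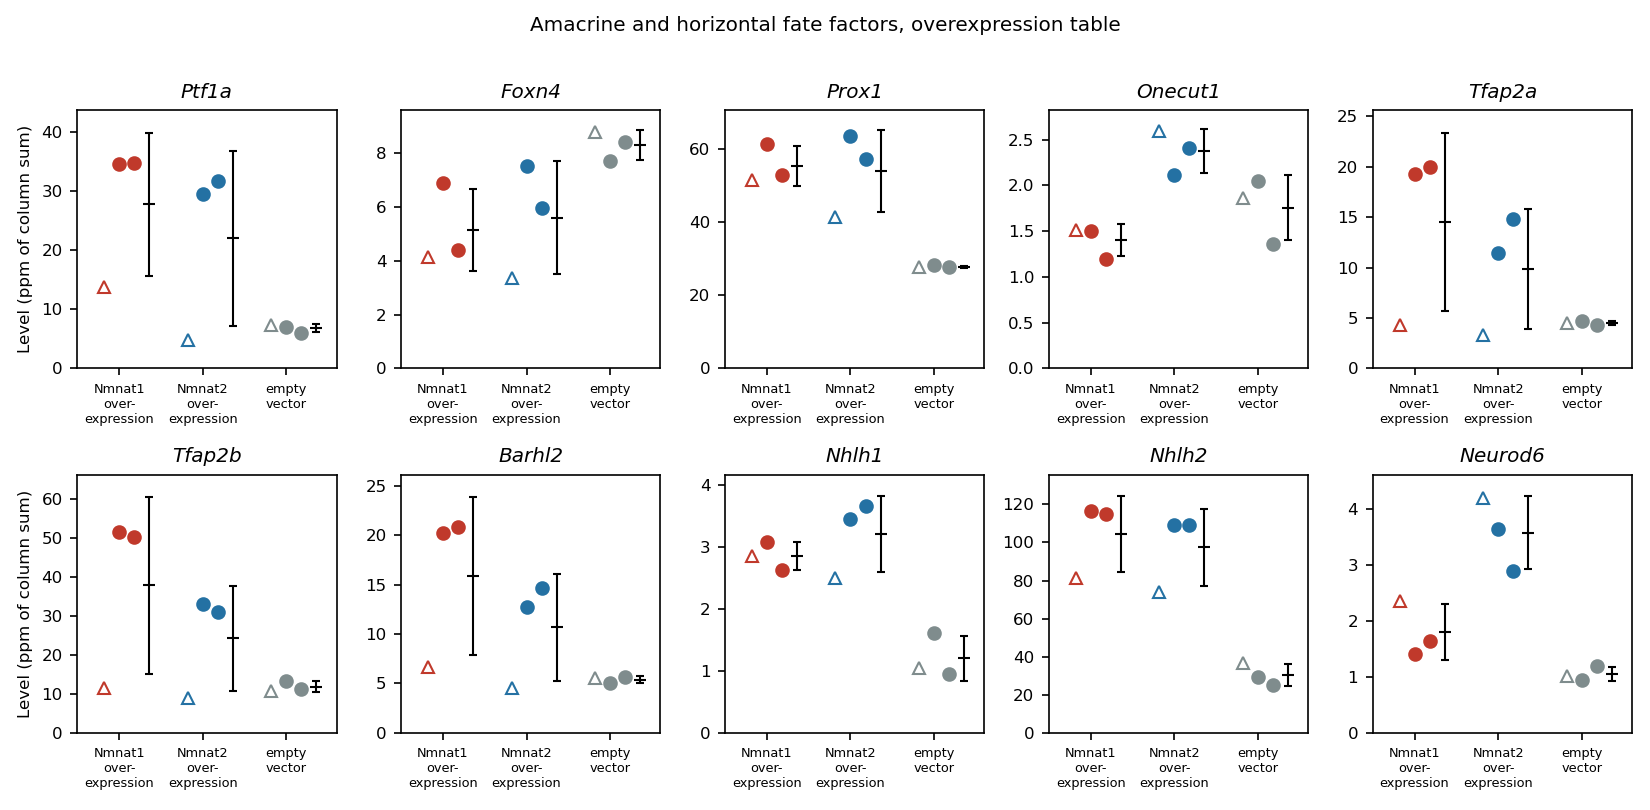
Level of each of the 10 factors in ppm of the column sum (vertical axis) in the 3 libraries of the Nmnat1 overexpression, Nmnat2 overexpression and empty-vector groups, with the mean and SD as bars to the right. Open triangles are the libraries numbered 1, in which Ptf1a stood at 13.8, 4.84 and 7.37 ppm, while the 4 other overexpression libraries stood between 29.5 and 34.9 ppm.

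Nhlh2 stood at 81.4, 116 and 115 ppm in Nmnat1 overexpression cells, at 74.1, 109 and 109 ppm in Nmnat2 overexpression cells and at 36.4, 29.2 and 25.0 ppm with the empty vector. Every overexpression library was above every empty-vector library, and the libraries numbered 1 were the lowest of their overexpression groups and the highest with the empty vector. The mean was 3.45-fold higher with Nmnat1 (log2 1.75 ± 0.20, limma adjusted p = 0.0141) and 3.22-fold higher with Nmnat2 (1.65 ± 0.20, adjusted p = 0.0164). Each call held under 13 of 18 alternatives. Without the libraries numbered 1 the log2 fold changes were 2.06 ± 0.09 and 1.97 ± 0.09. Nhlh1 stood at 2.85, 3.08 and 2.62 ppm with Nmnat1, at 2.51, 3.46 and 3.66 ppm with Nmnat2 and at 1.04, 1.61 and 0.953 ppm with the empty vector. These groups did not overlap either, with log2 fold changes of 0.82 ± 0.29 (adjusted p = 0.360) and 0.93 ± 0.29 (adjusted p = 0.248).

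Prox1 stood at 51.7, 61.6 and 53.0 ppm in Nmnat1 overexpression cells, at 41.5, 63.5 and 57.3 ppm in Nmnat2 overexpression cells and at 27.7, 28.2 and 27.7 ppm with the empty vector. The empty-vector libraries lay within 1 ppm of each other and under all 6 others. The log2 fold change was 0.91 ± 0.16 with Nmnat2, a 1.94-fold higher mean (limma adjusted p = 0.0397), and 0.96 ± 0.16 with Nmnat1, 1.99-fold (adjusted p = 0.0581). Prox1 passed under 7 of 18 alternatives with Nmnat2, with adjusted p from 0.00270 to 0.201, and under 6 of 18 with Nmnat1, with adjusted p from 0.00302 to 0.336. The difference between the plasmids was 0.05 ± 0.16 (adjusted p = 0.972). Onecut1 lay between 1.20 and 1.51 ppm with Nmnat1, between 2.12 and 2.60 ppm with Nmnat2 and between 1.36 and 2.04 ppm with the empty vector. It passed in neither comparison (adjusted p = 0.922 and 0.816).

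Ptf1a stood at 13.8, 34.7 and 34.9 ppm in Nmnat1 overexpression cells, at 4.84, 29.5 and 31.7 ppm in Nmnat2 overexpression cells and at 7.37, 7.06 and 6.07 ppm with the empty vector. All Nmnat1 libraries were above the empty vector, but the Nmnat2 library numbered 1 was below it. The log2 fold changes were 1.77 ± 0.59 (adjusted p = 0.316) and 1.20 ± 0.59 (adjusted p = 0.536). Without the libraries numbered 1 they were 2.24 ± 0.13 (adjusted p = 0.000335) and 2.06 ± 0.13 (adjusted p = 0.000548), or 5.30-fold and 4.66-fold in mean level. Foxn4, which is upstream of Ptf1a, was lower than with the empty vector in every library, at 4.15, 6.91 and 4.40 ppm with Nmnat1 and 3.35, 7.53 and 5.96 ppm with Nmnat2, against 8.80, 7.71 and 8.42 ppm. Its log2 fold changes of -0.62 ± 0.30 and -0.55 ± 0.30 did not pass (adjusted p = 0.553 and 0.593), nor did they without the libraries numbered 1 (adjusted p = 0.316 and 0.699).

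The AP-2 genes and Barhl2 showed the same split by library. Tfap2b stood at 11.6, 51.6 and 50.2 ppm with Nmnat1, at 8.80, 32.9 and 31.0 ppm with Nmnat2 and at 10.6, 13.4 and 11.3 ppm with the empty vector. Tfap2a stood at 4.34, 19.2 and 20.0 ppm with Nmnat1, at 3.32, 11.4 and 14.8 ppm with Nmnat2 and at 4.49, 4.68 and 4.33 ppm with the empty vector. For both genes the overexpression libraries numbered 1 lay among or under the empty-vector libraries and the 4 others lay above them. Tfap2b was at 1.35 ± 0.57 and 0.79 ± 0.57 (adjusted p = 0.482 and 0.728), and at 1.96 ± 0.12 and 1.30 ± 0.12 without the libraries numbered 1 (adjusted p = 0.000426 and 0.00204). Tfap2a was at 1.26 ± 0.57 and 0.78 ± 0.57 (adjusted p = 0.522 and 0.726), and at 1.91 ± 0.18 and 1.35 ± 0.18 (adjusted p = 0.00208 and 0.00836). Barhl2 stood at 6.67, 20.2 and 20.9 ppm with Nmnat1, at 4.54, 12.8 and 14.7 ppm with Nmnat2 and at 5.53, 5.02 and 5.60 ppm with the empty vector, and was at 1.26 ± 0.46 and 0.74 ± 0.46 (adjusted p = 0.380 and 0.657). Barhl2 was at 1.77 ± 0.16 and 1.22 ± 0.16 without the libraries numbered 1 (adjusted p = 0.00165 and 0.00732).

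Neurod6 had no such split. It stood at 2.36, 1.41 and 1.64 ppm with Nmnat1, at 4.19, 3.64 and 2.90 ppm with Nmnat2 and at 1.01, 0.943 and 1.18 ppm with the empty vector, and the libraries numbered 1 were the highest of both overexpression groups. The Nmnat2 libraries lay above all others, followed by the Nmnat1 libraries, with no overlap among the 3 groups. The log2 fold changes were 0.44 ± 0.30 (adjusted p = 0.741) and 1.15 ± 0.30 (adjusted p = 0.146). Between the plasmids limma called 0 of 10, where 0.0193% of all genes passed. Neurod6, lower with Nmnat1 than with Nmnat2 by -0.71 ± 0.30, was the one factor with an unadjusted p under 0.05 (adjusted p = 0.953), where 3.05% of all genes were lower at that level, and it and Onecut1 were the 2 that did not overlap, where 5.22% of all genes were lower without overlap. Without the libraries numbered 1 the count was again 0, where 0.183% of all genes passed, and 3 factors were higher and 1 lower at an unadjusted p under 0.05, where 4.95% and 8.41% of all genes were.

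**Figure D3:**
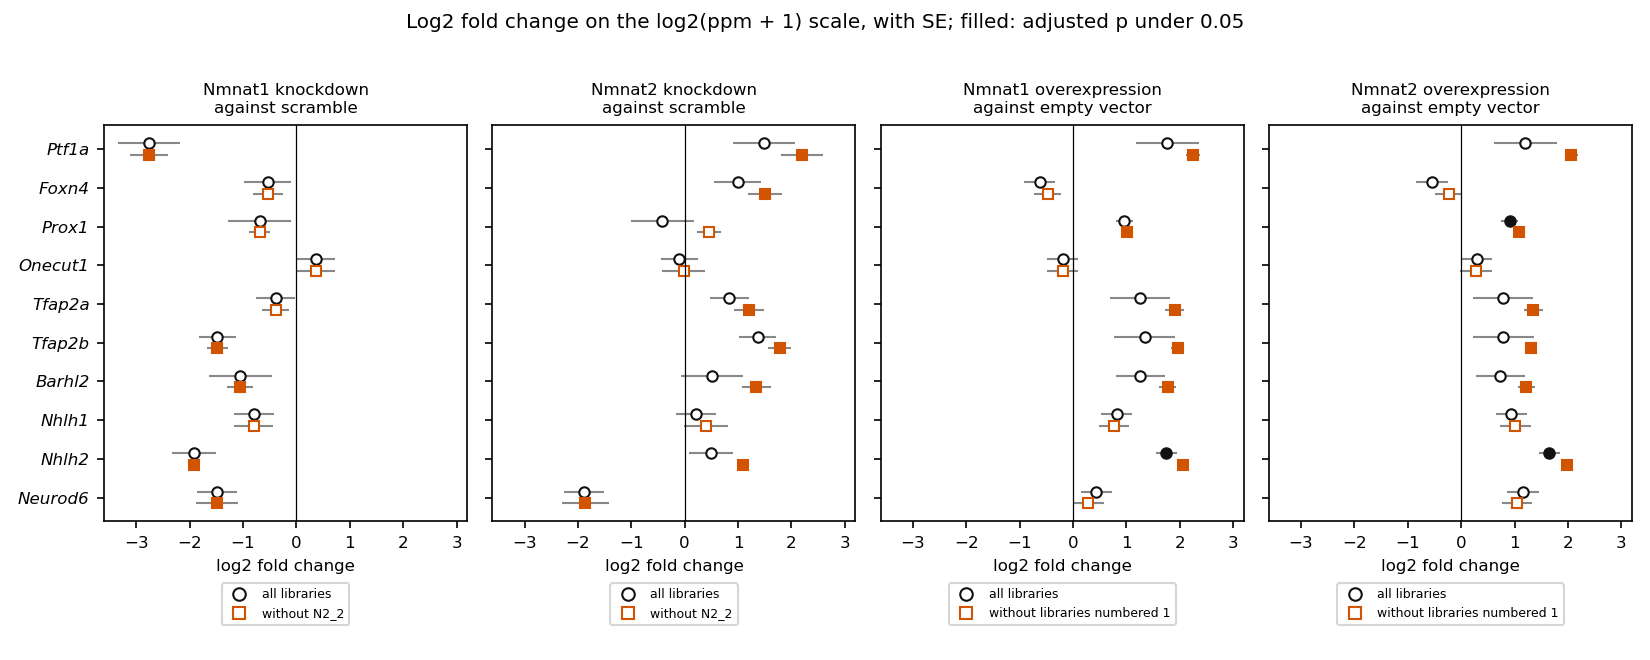
Log2 fold change with its SE (horizontal axis) of each of the 10 factors in the 4 comparisons with a control. Black circles use all libraries and orange squares leave out N2_2 (knockdown) or the libraries numbered 1 (overexpression), and filled symbols have a limma adjusted p under 0.05. Filled symbols number 0, 0, 1 and 2 with all libraries and 5, 7, 6 and 6 without those libraries.

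Among 23 tested amacrine genes other than the 10 factors, from a list of 26, Calb2, which encodes the amacrine calcium-binding protein calretinin, fell in Nmnat1 knockdown cells (log2 -2.51 ± 0.27, limma adjusted p = 0.0176) and rose in Nmnat2 knockdown cells (1.53 ± 0.27, adjusted p = 0.0484). No other gene of that list passed in either comparison. The list's median was -0.73 in Nmnat1 and 0.15 in Nmnat2 knockdown cells, against -0.00 and -0.23 for all genes. Without N2_2, 6 of the 23 were called lower and 1 higher in Nmnat1 knockdown, and 7 higher and 0 lower in Nmnat2 knockdown cells. Of all 22233 genes, 776 were then lower and 1026 higher in Nmnat1 knockdown, and 1718 higher and 1613 lower in Nmnat2 knockdown cells. Of 22 tested in the overexpression table, 0 passed with Nmnat1, where 10 had an unadjusted p under 0.05, all higher. Of all 20725 genes, 920 were higher at that unadjusted level. With Nmnat2, 3 rose, where 0.203% of all genes did. These 3 were Calb2 (1.30 ± 0.24, adjusted p = 0.0488), Ebf3 (1.30 ± 0.24, adjusted p = 0.0498) and Prdm13 (1.40 ± 0.26, adjusted p = 0.0498). Ebf3 is a helix-loop-helix factor of amacrine subtypes, and Prdm13 acts after Ptf1a in amacrine cells. Without the libraries numbered 1, 11 of 22 were called higher with Nmnat1 and 10 with Nmnat2, and 0 lower. Of all genes, 4.43% and 3.27% were then called higher.

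Of 15 listed genes of the Foxn4 and Ptf1a network, 12 were tested and 0 passed in either knockdown comparison or with Nmnat1 overexpression. Prdm13 alone rose with Nmnat2. Rbpj, the partner of Ptf1a, was at 0.77 ± 0.22 in Nmnat2 knockdown cells (adjusted p = 0.135), and Prdm13 was at -1.77 ± 0.42 in Nmnat1 knockdown cells (adjusted p = 0.170). Without N2_2, 1 network gene was higher and 4 lower in Nmnat1 knockdown, and 7 higher and 0 lower in Nmnat2 knockdown cells. With each overexpression plasmid, 4 were higher and 0 lower without the libraries numbered 1. The calls over all genes in these settings are those given beside the amacrine genes. Of 11 listed horizontal cell genes, 6 and 7 were tested. The neurotrophic receptor gene Ret rose with Nmnat1 (1.40 ± 0.16, adjusted p = 0.0141) and with Nmnat2 overexpression (1.67 ± 0.16, adjusted p = 0.00540), and was at -2.29 ± 0.47 in Nmnat1 knockdown cells (adjusted p = 0.124). No other horizontal cell gene passed against a control with all libraries. Without N2_2, 2 of the 6 were lower in Nmnat1 knockdown cells, Ret among them (adjusted p = 0.000938). In Nmnat2 knockdown cells 1 was then lower, namely Sept4 (-0.75 ± 0.08, adjusted p = 0.000268). With the libraries numbered 1 left out, 2 of the 7 were higher and 0 lower with each plasmid. Ret was then at 1.45 ± 0.15 with Nmnat1 (adjusted p = 0.00283) and 1.84 ± 0.15 with Nmnat2 (adjusted p = 0.00148).

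Markers of several other cell types moved beside the factors. Of the 12 listed retinal ganglion cell markers, 0 passed against a control with all libraries. Without N2_2, 0 passed in Nmnat1 knockdown and 1 was higher in Nmnat2 knockdown cells. Without the libraries numbered 1, 2 were higher with Nmnat1 and 3 with Nmnat2 overexpression. Of all genes, 7.73% were called higher in Nmnat2 knockdown cells without N2_2. Without the libraries numbered 1, 4.43% were called higher with Nmnat1 and 3.27% with Nmnat2 overexpression. Photoreceptor markers summed to 8063 to 8383 ppm in Nmnat1 knockdown cells, 3909 to 4524 ppm in Nmnat2 knockdown cells and 7207 to 7514 ppm in scramble cells. Of 14, limma called 0 in Nmnat1 knockdown cells, where 1 was higher and 1 lower at an unadjusted p under 0.05, and 4 lower in Nmnat2 knockdown cells, namely Pde6b, Nr2e3, Gnat2 and Opn1sw. Of all 22233 genes, 1085 were higher and 1253 lower at that unadjusted level in Nmnat1 knockdown cells. Without N2_2, 4 photoreceptor markers were higher and 2 lower in Nmnat1 knockdown and 1 higher and 10 lower in Nmnat2 knockdown cells. Here and for the lists below, the calls over all genes without N2_2 are those given beside the amacrine genes. Müller glia markers summed to 2779 to 2927 ppm in Nmnat1 knockdown, 2324 to 3742 ppm in Nmnat2 knockdown and 5065 to 5764 ppm in scramble cells. Of 9 tested, Crym fell in Nmnat1 knockdown, and Crym and Apoe fell in Nmnat2 knockdown cells. Without N2_2, 8 were lower in Nmnat1 knockdown, and 2 higher and 4 lower in Nmnat2 knockdown cells. In the overexpression table photoreceptor markers summed to 4784 to 6744 ppm with Nmnat1, 4780 to 5459 ppm with Nmnat2 and 7460 to 8168 ppm with the empty vector, with 0 of 14 called with Nmnat1, where 9 were lower at an unadjusted p under 0.05, and 3 lower with Nmnat2 (Gnat2, Rcvrn and Opn1sw). Of all 20725 genes, 1063 were lower at that unadjusted level with Nmnat1. With the libraries numbered 1 left out, 1 photoreceptor marker was higher and 9 lower with Nmnat1, and 8 were lower with Nmnat2. Beside this list and those below, 918 of all genes were then higher and 748 lower with Nmnat1, and 678 and 544 with Nmnat2. Müller glia markers summed to 5287 to 6205 ppm with Nmnat1, 3848 to 6796 ppm with Nmnat2 and 5441 to 6130 ppm with the empty vector. In each comparison 0 of 9 were called and 1 was higher at an unadjusted p under 0.05, where 920 and 1039 of all 20725 genes were. Without the libraries numbered 1, 4 of the 9 were called higher and 0 lower with each plasmid. Retinal progenitor markers had medians of -0.74 and -0.33 in Nmnat1 and Nmnat2 knockdown cells, with 0 of 16 past in each, 7 lower in Nmnat1 knockdown and 3 lower and 1 higher in Nmnat2 knockdown cells at an unadjusted p under 0.05. Of all genes, 5.64% were lower in Nmnat1 knockdown, and 13.4% lower and 3.41% higher in Nmnat2 knockdown cells at that level. In library N2_2 and in the Nmnat2 overexpression library numbered 1 the sum of the progenitor markers was the lowest of the table, at 795 and 756 ppm. Without N2_2, 8 progenitor markers were lower in Nmnat1 knockdown cells, while in Nmnat2 knockdown cells 3 were higher and 1 lower and the median was 0.22. With Nmnat1 overexpression 7 were higher and 1 lower, and with Nmnat2 overexpression 5 were higher, when the libraries numbered 1 were left out. Of the 14 neurogenic precursor markers Sox11 alone rose with all libraries, with Nmnat2 overexpression (1.19 ± 0.21, adjusted p = 0.0482), and of the bipolar cell markers Pcp2 alone fell there. Without N2_2, 2 neurogenic precursor markers were higher and 4 lower in Nmnat1 knockdown cells, and 9 were higher and 0 lower in Nmnat2 knockdown cells. With each overexpression plasmid, 4 of them were higher and 0 lower when the libraries numbered 1 were left out. Bipolar cell markers summed to 224 ppm in N2_1, 711 ppm in N2_2 and 240 ppm in N2_3 of the Nmnat2 knockdown group. In scramble cells they summed to 494 to 561 ppm. Without N2_2, 0 bipolar cell markers were called in Nmnat1 knockdown and 3 were lower in Nmnat2 knockdown cells. With each plasmid, 1 was higher and 1 lower without the libraries numbered 1. Microglia, vessel and pigment cell markers summed to between 16.8 and 53.7 ppm over all libraries, with up to 3 of 13 at 0. With all libraries 0 of these passed against a control. Without N2_2, 1 was higher and 1 lower in Nmnat1 knockdown cells, and 0 passed in Nmnat2 knockdown cells. With each plasmid, 1 was higher and 0 lower without the libraries numbered 1. The part of these markers in the differences of the 10 factors was not tested.

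**Figure D4:**
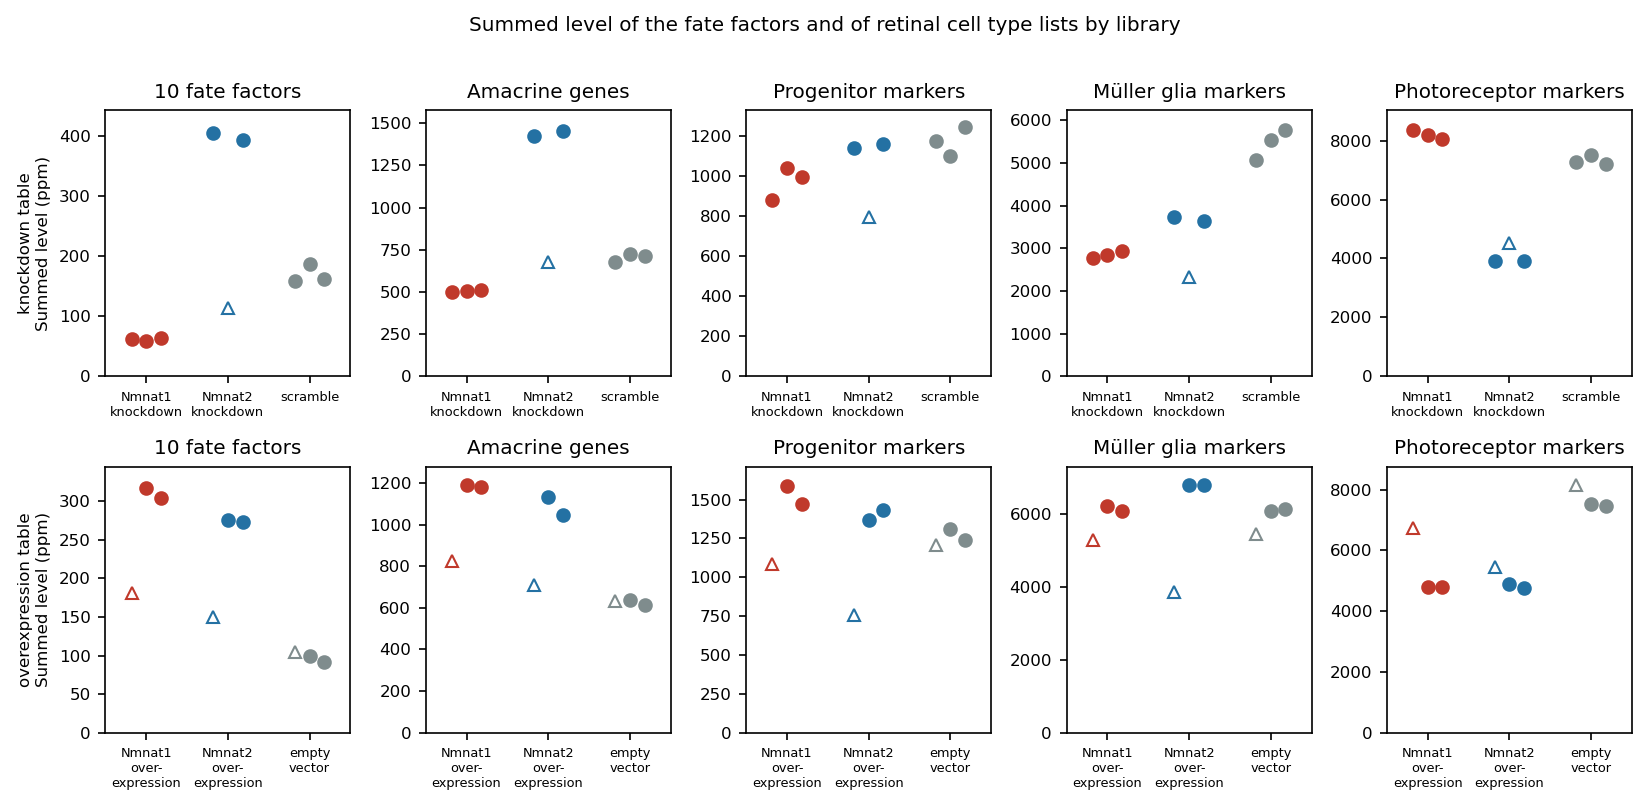
Summed level in ppm (vertical axis) of the 10 factors and of 4 lists of retinal cell type genes, by library and group, in the knockdown table (top) and the overexpression table (bottom), with open triangles for N2_2 and for the libraries numbered 1. The factors summed to 58.4 to 63.6 ppm in Nmnat1 knockdown cells, 114 to 405 ppm in Nmnat2 knockdown cells and 159 to 187 ppm in scramble cells.

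As a description over the 9 libraries of a table, which share their groups, the genes whose levels followed a factor most closely were listed for the 2 factors of each table with the smallest p against a control. For Ptf1a in the knockdown table these were Pax6, a homeobox gene of progenitors and amacrine cells (Pearson's r = 0.995), Stmn2 (0.986) and Glcci1 (0.983). Neurod6 was followed by Slc25a10 (0.971), Cenpn (0.963) and Gclm (0.958). In the overexpression table Nhlh2 was followed by Socs2 (0.994), Nrg3 (0.991) and Ier5 (0.989), and Prox1 by Ier5 (0.990), Ina (0.988) and Pcdh8 (0.984).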

How the data were processed

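SMART-Seq v4 cDNA from 1 ng of RNA was sequenced from sorted cells, per the labels' protocols. The submitters' processing notes name Salmon 0.11.3, sleuth 0.30.0 and the build GRCm38.p6. The deposited signal is named TPM, but its columns sum to far more than TPM can, by a factor the sources used here do not state. For single-transcript genes, 68.1% to 83.2% of low values per library lay within 0.1 of a whole number of reads, which gave reads for those genes only, and no count test was run.

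Values were rescaled to ppm of the column sum. Tests covered genes that reached 1 ppm in 3 or more of a table's 9 libraries (22233 and 20725). limma 3.58.1 (R 4.3.3) took log2(ppm + 1), the 3 groups of a table in 1 fit, with a mean-variance trend, two-sided tests and BH adjustment at 0.05. The fit was tested on simulated data. No test crosses the tables. Knockdown columns name a group, not a sample. The titles of 1 Nmnat2 knockdown and 1 Nmnat2 overexpression sample name Nmnat3, and the characteristics were followed. The last, incomplete line of each table was dropped. Figures used matplotlib 3.10.9.

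The 10 factors and the gene lists were chosen with earlier results of these data known. Named beside the factors were list genes past 0.05 against a control (up to 6 per list, otherwise up to 2 by unadjusted p), and genes alike with a mean of at least 5 ppm. Alternatives covered pseudocount, filter, scaling, fit on 2 groups, trend, replicate number and left-out libraries. Of the listed genes, 1 is not reported here.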

Additional observations from a re-analysis of the deposited data

Results flagged for a closer look

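Of the 10 factors, 3 were singled out because limma's test of the difference between the Nmnat1 and Nmnat2 knockdown groups passed, so that their effects under the same contrast with scramble differed. The log2 difference was -4.24 for Ptf1a, -2.85 for Tfap2b and -2.42 for Nhlh2. With groups of 3, single libraries were not tested as outliers.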

How the results depend on the processing

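Of 668 fold changes of single factors against a control under an alternative, 327 with one library left out and 286 under the others kept their sign and side of 0.05. In Nmnat2 knockdown, 3 turned sign, namely Onecut1 under median-of-ratios scaling (0.03) and without C1 (-0.21 to 0.0054 with one library left out), and Prox1 without N2_2 (-0.86 to 0.45 with one left out). That scaling moved the median of all genes in Nmnat2 knockdown to -0.04 from -0.23. The cause of changed counts was not tested.

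The count of factors called in Nmnat1 knockdown was 3 when fitted on 2 groups and 0 to 5 with one library left out (5 without N2_2). In Nmnat2 knockdown it was 0 to 7 with one left out (7 without N2_2). Between the knockdown groups it was 5 under median-of-ratios scaling and 2 to 7 with one left out (7 without N2_2). With Nmnat1 overexpression the count of factors was 2 with a filter of 5 ppm and 2 when fitted on 2 groups. It was 0 with no trend and 6 without the libraries numbered 1. Of all genes, 0.447%, 0.154%, 0.00965% and 8.04% were called in these settings, against 0.121% as first fitted. With one left out the count of factors was 0 to 3. It was 0 without v2, v3, N1_2 or N1_3, 2 without N1_1 and 3 without N2_1. Without N1_1 or N2_1, 1.31% and 1.09% of all genes were called. With Nmnat2 overexpression the count of factors was 1 with no filter, under median-of-ratios scaling or when fitted on 2 groups. It was 0 with no trend and 6 without the libraries numbered 1. Of all genes, 0.145%, 0.343%, 0.372%, 0.0241% and 5.90% were called in these settings, against 0.550% as first fitted. With one left out the count of factors was 0 to 3. It was 0 without v2, v3, N2_2 or N2_3 and 1 without v1, N1_2 or N1_3. Of all genes, 0.0145% to 1.45% were called with one left out.

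Over all genes, the counts were 32, 97, 458, 25, 114 and 4 in the 6 comparisons, and 0 to 1802, 0 to 3331, 80 to 2904, 3 to 271, 3 to 301 and 2 to 11 with one library left out. Under the other alternatives they were 1 to 969, 0 to 190, 108 to 618, 2 to 1666, 5 to 1222 and 2 to 38. Under median-of-ratios scaling the calls in Nmnat2 knockdown split into 66 higher and 33 lower, against 17 and 80.

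The replicate block was run for the overexpression table, where same-numbered libraries deviated together at r of 0.027 to 0.461 over 9 pairs, not all over 0.1, so the numbers were not taken to pair the samples, and not every library correlated best with its own number. With the replicate block 2 factors were called with Nmnat1, Prox1 added (adjusted p = 0.0251), and 2 with Nmnat2. Of all genes, 0.902% and 1.30% were then called, against 0.121% and 0.550% without the block. No paired analysis was possible for the knockdown table because the numbers in its column names are not tied to samples by the labels. Nhlh1, Neurod6 and Onecut1 gave no value under the filter of 5 ppm. At 5 to 45 reads in Nmnat1 knockdown cells, depth limits the size of the Ptf1a difference.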
